A study of Mus musculus with 2 samples.

Results

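Transcription factors of the periocular mesenchyme were followed across the cell classes of the embryonic mouse eye: the forkhead factors Foxc1, Foxc2 and Foxd1, the AP-2 factors Tfap2a and Tfap2b, the basic helix-loop-helix factors Twist1 and Twist2, and the homeodomain factors Lmx1b and Prrx1. They were taken by name, as known factors of this tissue and with earlier results of these data known. They are 9 of the 31053 genes counted. Counts came from 2 single-cell libraries of eye cups at e13.5, after the cornea, lens and optic nerve had been dissected away. One library, called the control here, was made from eye cups of 3 pooled Myrf fl/fl samples. The other, called the mutant, was made from eye cups of 3 pooled Rx>cre Myrf fl/fl samples. Both genotypes carried the floxed Myrf alleles, and only the mutant carried the Rx>cre transgene, which acts in the early eye field, the source of the retina and the retinal pigment epithelium (RPE). The mesenchyme around the eye derives from neural crest and mesoderm, not from the eye field.

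The periocular mesenchyme is the loose tissue between the optic cup and the surface ectoderm. It is built from cranial neural crest and mesoderm and gives rise to the corneal stroma and endothelium, the iris stroma, the drainage angle, the choroid, the sclera and the extraocular tissues. Foxc1, Foxc2, Lmx1b and Tfap2b are known for the anterior segment defects that follow their loss, Twist1, Twist2 and Prrx1 are general factors of head mesenchyme, and retinoic acid from the optic cup acts on these cells. Foxd1 and the AP-2 factors also have roles in the retina, Foxd1 as a factor of its temporal side and the AP-2 factors in amacrine and horizontal cells.

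The control library held 6039 barcodes and 63483835 unique molecular identifiers (UMIs, counts of single RNA molecules), and the mutant library 6754 barcodes and 75228861 UMIs. After filtering, 5451 control cells and 6309 mutant cells remained, with medians of 11331 and 11160 UMIs. The cells fell into 29 clusters, of which 26 were assigned to 14 classes by marker genes. None of the 9 genes was among those markers, and the 9 genes were also left out of the genes used for clustering. Both libraries shared 72 barcode sequences, most of them in an unnamed cluster of 60 control and 63 mutant cells. The mesenchyme ratios without these barcodes stayed inside their counting intervals. Each mesenchyme cluster held at most 2 such cells per library, so leaving them out could hardly move a ratio. Myrf, the targeted gene, was counted at 75 and 20.1 CPM in RPE-like cells (control first), which is a log2 ratio, mutant over control, of -1.86 (-2.52 to -1.33). The libraries read the 3' ends of transcripts, and whether the deletion removes the counted sequence is not given in the sources used here.

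Periocular mesenchyme-like cells were the 1530 control cells (28.1% of those kept, 95% exact binomial interval 26.9 to 29.3%) and 1979 mutant cells (31.4%, 30.2 to 32.5%) of 7 clusters. All 13 mesenchyme markers, among them Col1a1, Pdgfra, Lum and Dcn, were detected in this class in both libraries, with summed levels of 3115 and 3084 CPM (UMIs per 1000000 UMIs of the class). The mesenchyme markers did not tell these clusters apart, so the values are also given by cluster number. Against all other cells, none of the 7 clusters had mesenchyme markers among its 10 leading genes, and 3 (11, 12 and 16) had marker genes of another class there. These were Msc (muscle) and Tagln (pericyte) in cluster 11, Col9a3 and Col2a1 (chondrocyte) in cluster 12, and Pdgfrb (pericyte) in cluster 16. Chondrocyte markers summed to 660 and 649 CPM in cluster 12 (control first), against 272 and 263 CPM in the class. Pericyte markers summed to 537 and 576 CPM in cluster 11 and 456 and 439 CPM in cluster 16, against 239 and 233 CPM in the class. Results over the class are therefore also given without those 3 clusters. In the class, the 10 red blood cell markers, mostly haemoglobin genes, summed to 582 CPM in the control and 915 CPM in the mutant library. The share of the class with at most 5% mitochondrial UMIs was 66.8% in the control and 54.9% in the mutant. The part of the red blood cell RNA in the results was not tested, and ratios among cells with at most 5% mitochondrial UMIs are given below where they differ.

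Levels below are CPM of the summed UMIs of a class, with 95% exact Poisson intervals, and where a pair of values is given the control library comes first. With 1 library per genotype there is no replicate, so no test of genotype was made and every interval covers counting error only. Free RNA reaches every droplet, and the background was read from red blood cell-like cells, where none of these factors is known to act. A gene was taken as above background in a class when its interval lay above that of the red blood cell-like cells in both libraries, as CPM and as UMIs per 100 cells. In the mesenchyme 8 of the 9 genes were above background, as were 73.0% of all genes with at least 10 UMIs there, so this is a common property. Of these, 4 (Foxc2, Twist1, Twist2 and Prrx1) were above background in no other named class, which held for 3.88% of all genes. The 9 genes were chosen as known factors of this tissue, so a share above that of all genes was built into the choice.

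Foxc1 (ENSMUSG00000050295, chr13:31806633-31812476, plus strand), a forkhead gene whose loss causes anterior segment dysgenesis, was measured in the mesenchyme at 124 CPM (95% interval 119 to 129) in the control library and 110.0 CPM (106 to 114) in the mutant library, from 2665 and 2925 UMIs. Its background in red blood cell-like cells was 1.42 and 1.46 CPM. The mesenchyme held 93.4% and 94.6% of the Foxc1 UMIs of all named classes. Foxc1 was also above background in surface ectoderm-like cells, at 40.9 CPM (95% interval 26.7 to 59.9) in the control library and 23.8 CPM (13 to 40.0) in the mutant library, and in endothelial-like cells, at 31.3 CPM (95% interval 23.6 to 40.8) in the control library and 20.9 CPM (14.8 to 28.7) in the mutant library. These neighbouring levels did not differ beyond their intervals, and both lay below the mesenchyme.

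Foxc2 (ENSMUSG00000046714, chr8:121116171-121118895, plus strand), the close paralog of Foxc1, with known roles in lymphatic vessels and in eyelid and anterior eye mesenchyme, was at 54.5 CPM (95% interval 51.4 to 57.7) in the control library and 46.2 CPM (43.7 to 48.9) in the mutant library in the mesenchyme. It passed the rule used in no other named class. Endothelial-like cells held 8 and 7 UMIs (4.56 and 3.85 CPM), and surface ectoderm-like cells had its next highest level in both libraries. A gene of lower level passes the rule less readily, so this does not show that Foxc2 is narrower than Foxc1. Foxc2 lies within a longer annotated gene on the same strand, Gm20388, and reads that match both could not be assigned to either.

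Foxd1 (ENSMUSG00000078302, chr13:98354242-98359305, plus strand) stood apart from the other forkhead genes because the mesenchyme was not where its level was highest. Its level was 21.8 CPM (95% interval 19.9 to 23.9) in the control library and 17.9 CPM (16.3 to 19.5) in the mutant library in the mesenchyme and 44.1 CPM (95% interval 41.2 to 47.2) in the control library and 49 CPM (45.9 to 52.2) in the mutant library in retinal progenitor-like cells. The mesenchyme held 31.2% and 27% of its UMIs over the named classes. Ganglion cell-like cells (26.2 and 34.8 CPM), neurogenic precursor-like cells (17.7 and 29.7 CPM) and RPE-like cells (9.68 and 17.4 CPM) were also above background, so Foxd1 was counted across the retinal classes. Amacrine or horizontal-like and photoreceptor precursor-like cells passed the same rule on 6 and 22 UMIs and 5 and 8 UMIs.

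Tfap2a (ENSMUSG00000021359, chr13:40715302-40738376, minus strand) was the 1 gene not above background in the mesenchyme. It was counted there at 1.72 CPM (95% interval 1.21 to 2.38) in the control library and 1.73 CPM (1.27 to 2.31) in the mutant library, in 36 of 1530 control and 39 of 1979 mutant cells. Its highest level was in melanocyte-like cells, neural crest derivatives that reach the eye through the mesenchyme, at 84.5 CPM (95% interval 66.3 to 106) in the control library and 87.7 CPM (66.6 to 113) in the mutant library. Surface ectoderm-like cells had 33 and 32.4 CPM, amacrine or horizontal-like cells 30.5 and 34.4 CPM, and Schwann or neural crest-like cells 26.4 and 33.6 CPM, and these 3 levels did not differ beyond their intervals. On the opposite strand, 3 annotated antisense genes overlap Tfap2a.

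Tfap2b (ENSMUSG00000025927, chr1:19208914-19238576, plus strand), a neural crest factor needed for the corneal endothelium, was above background in the mesenchyme and in 3 other classes. It was at 199 CPM (95% interval 193 to 205) in the control library and 191 CPM (186 to 196) in the mutant library in the mesenchyme and at 186 CPM (95% interval 154 to 224) in the control library and 229 CPM (196 to 266) in the mutant library in amacrine or horizontal-like cells, and the intervals of these classes overlapped in the control library and not in the mutant. Surface ectoderm-like cells followed at 86.4 and 71.5 CPM and melanocyte-like cells at 35.9 and 37.8 CPM. Both AP-2 genes were thus above background in these 3 classes. They parted in the mesenchyme. In Schwann or neural crest-like cells only Tfap2a passed the rule used, with Tfap2b at 7 of 302648 control and 2 of 565950 mutant UMIs. On so few UMIs the AP-2 genes were not resolved from each other there in the control library.

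Twist1 (ENSMUSG00000035799, chr12:33957671-33959829, plus strand), a factor that keeps head mesenchyme undifferentiated, was at 566 CPM (95% interval 556 to 576) in the control library and 601 CPM (592 to 611) in the mutant library in the mesenchyme, against 5.68 and 6.52 CPM in red blood cell-like cells. The mesenchyme held 96.9% and 98% of its UMIs over the named classes. Macrophage-like and endothelial-like cells had higher Twist1 levels in the control than in the mutant library, but 1 cell held 60.4% and 33.3% of those control UMIs. Twist2 (ENSMUSG00000007805, chr1:91801461-91848028, plus strand), its paralog, was at 100.3 CPM (95% interval 96.1 to 105) in the control library and 101 CPM (97.2 to 105) in the mutant library in the mesenchyme and at 1.18 and 2.04 CPM in red blood cell-like cells.

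Lmx1b (ENSMUSG00000038765, chr2:33560965-33640511, minus strand), a LIM homeodomain factor required in the anterior segment and the limb, was at 28.4 CPM (95% interval 26.2 to 30.8) in the control library and 29.1 CPM (27 to 31.2) in the mutant library in the mesenchyme. The 1 other class above background was muscle precursor-like cells, with 9 and 16 UMIs and 14.9 and 23.3 CPM. Prrx1 (ENSMUSG00000026586, chr1:163245119-163313710, minus strand), a homeobox gene of limb and head mesenchyme, was at 199 CPM (95% interval 193 to 205) in the control library and 212 CPM (207 to 218) in the mutant library. Outside the mesenchyme Prrx1 reached 18.9 CPM in control RPE-like cells (8.03 CPM in the mutant), without passing the rule in both libraries. Tfap2a, Twist2, Lmx1b and Prrx1 overlap annotated genes on the opposite strand. Prrx1 also overlaps Gm26523 on its own strand, so some Prrx1 reads may be unassigned.

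**Figure D1:**
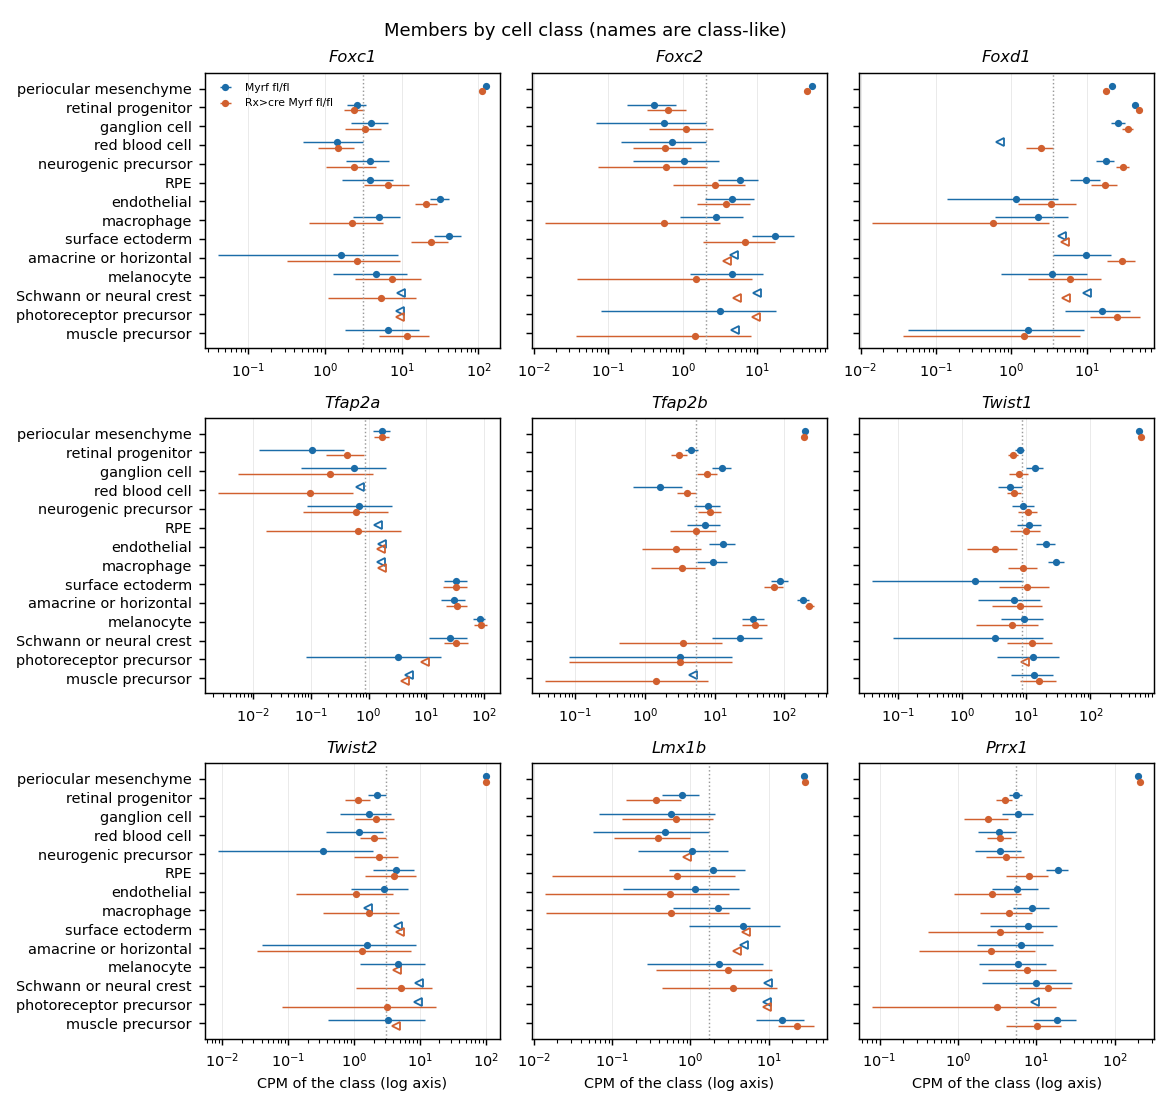
Level of each of the 9 genes in the 14 named cell classes, as CPM on a log axis, with control in blue, mutant in orange and bars for 95% exact Poisson intervals. Open triangles stand at 3 UMIs for a class with a count of 0, and the dotted line is the higher upper limit of the red blood cell-like class. Foxc2, Twist1, Twist2 and Prrx1 stand out in the mesenchyme, while Foxd1 peaks in retinal progenitors and Tfap2a outside the mesenchyme.

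Shares of cells with a UMI depend on depth, so each cell was thinned to 3000 UMIs, which left out 24 control and 10 mutant mesenchyme cells. Twist1 was then detected in 64.7% (62.3 to 67.2%) of control and 64.7% (62.5 to 66.8%) of mutant mesenchyme cells, against 2.25% and 1.21% of red blood cell-like cells at the same depth. Before thinning the shares were 91.4% and 90.3%. Prrx1 was found in 44% and 43.5% of thinned mesenchyme cells, Tfap2b in 31.5% and 29.7%, and Foxc1 in 29.5% and 28.2%. Lmx1b (8.83% and 8.28%) and Foxd1 (5.18% and 4.52%) were found in fewer cells. At least 1 of the 9 genes was detected in 91.2% of control and 89.4% of mutant mesenchyme cells, and at least 3 in 39.2% and 37.9%.

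Because Foxd1 was highest in the retina, it was set beside genes of the nasal and temporal retina in retinal progenitor-like cells, with each cell thinned to 3000 UMIs. Hmx1, a homeobox gene of the nasal retina, was less often found in cells with Foxd1 in both libraries. It was detected in 31.9% (24.4 to 40.2%) of thinned control cells with Foxd1 and 57.6% (54.8 to 60.3%) of those without. The mutant shares were 35.5% (27.9 to 43.7%) and 54.7% (52 to 57.3%). Epha5, an ephrin receptor gene of the temporal retina, went the other way in the control, with 41% against 30.2%, while in the mutant 38.8% and 35.4% did not differ beyond their intervals. Efna5, a nasal ephrin gene, had 4.17% and 9.13% in the control, with overlapping intervals, and Efna2 showed no gap in either library.

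**Figure D2:**
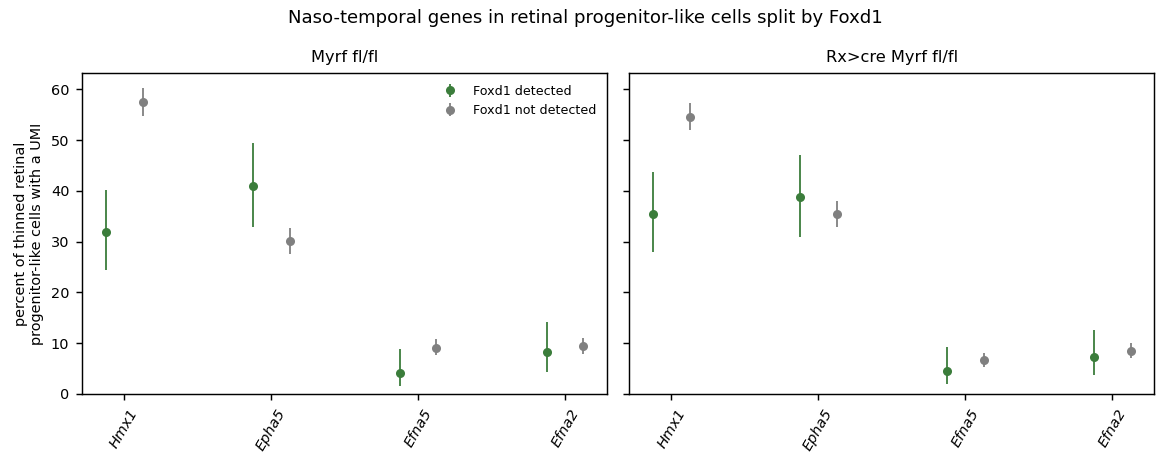
Percent of retinal progenitor-like cells, thinned to 3000 UMIs, with a UMI of each of the 4 naso-temporal genes with the most UMIs, in cells with Foxd1 (green) and without (grey), with 95% exact binomial intervals. Hmx1 lies lower in the cells with Foxd1 in both libraries (31.9% against 57.6% in the control).

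Within the mesenchyme the 9 genes had different peaks. The 7 clusters were set apart by Nbl1, Ddit4l and Fst (cluster 2), by cell cycle genes such as Top2a and Birc5 (cluster 6), by Pgf, Nrp2, Crym and the retinoic acid synthesis gene Aldh1a2 (cluster 10), by Meox1, Scx and Tnc (cluster 11), by Col9a3, Sox9 and Dkk2 (cluster 12), by Fmo1, Spp1, Cxcl12 and Pdgfrb (cluster 16), and by Osr2, Foxl2 and Dlk1 (cluster 17). In 8 of 9 genes the same cluster held the highest level in both libraries, and in 7 of 9 the same cluster the lowest. The exception at the top was Foxd1, and at the bottom Twist2 and Tfap2a, the latter with counts near 0.

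Tfap2b, Twist1 and Twist2 shared cluster 2 as their peak and were among its leading genes, although they had been left out of the genes that formed it. Prrx1 (258 and 290 CPM) and, at low levels, Tfap2a (2.86 and 4.70 CPM) were also highest in cluster 2, but were not among its 10 leading genes. Tfap2b had 427 and 445 CPM there and 18.2 and 16.3 CPM in cluster 10, a 23.4-fold and 27.3-fold range. Twist1 had the same extremes, from 1136 and 1145 CPM in cluster 2 to 154 and 162 CPM in cluster 10, a 7.39-fold and 7.06-fold range. Twist2 was at 218 and 208 CPM in cluster 2, with 112 and 107 CPM in cluster 6 and lower levels elsewhere. In cluster 16 Tfap2b was at 418 and 275 CPM, next to cluster 2 in the order, while Twist1 was at 409 and 421 CPM and Twist2 at 41.7 and 48.2 CPM, each below its own level in clusters 2 and 6.

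The sequences before the starts of the Twist pair are shown because these paralogs had the same peak in the mesenchyme and no other named class above background. Each is the 250 bases upstream of the RefSeq transcript start in GRCm38.p6, 5′ to 3′ on the gene's strand. Capitals mark matches on either strand to CANNTG (the E-box of basic helix-loop-helix factors), GCCNNNGGC (an AP-2 site), TAAACA (a forkhead core) or TAATTA (a homeodomain core), none of which overlap one another here.
Twist1, chr12:33957421-33957670, plus strand: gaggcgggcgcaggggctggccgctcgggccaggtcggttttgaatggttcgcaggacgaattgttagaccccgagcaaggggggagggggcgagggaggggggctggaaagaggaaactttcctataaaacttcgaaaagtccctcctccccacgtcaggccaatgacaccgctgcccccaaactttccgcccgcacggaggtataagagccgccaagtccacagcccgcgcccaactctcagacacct
Twist2, chr1:91801211-91801460, plus strand: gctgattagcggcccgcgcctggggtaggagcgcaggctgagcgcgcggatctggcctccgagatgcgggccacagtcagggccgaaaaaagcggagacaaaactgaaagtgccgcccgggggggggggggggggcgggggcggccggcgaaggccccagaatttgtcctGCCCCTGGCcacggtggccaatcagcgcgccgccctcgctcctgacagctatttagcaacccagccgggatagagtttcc
The Twist1 window held none of these motifs and the Twist2 window held 1 AP-2 match, GCCCCTGGC. Of 32817 windows of this length, 66.2% held an E-box, 13.7% an AP-2 site, 12% the forkhead core and 4.85% the homeodomain core. RefSeq gave a window for 8 of the 9 genes, with 2 windows for Tfap2a. Among the others, Tfap2b, Lmx1b and Foxd1 held 1 E-box each, Foxc1 held 1 AP-2 match, and Prrx1 held 1 TAATTA. Of the 2 Tfap2a windows, 1 held 1 TAATTA and the other held none of these motifs.

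Foxc1 had a different order from the Twist genes. Its peak was cluster 10, with 257 CPM (95% interval 239 to 277) in the control library and 220.4 CPM (205 to 237) in the mutant library, and cluster 2 had 80.0 and 76.4 CPM. Cluster 16 came next with 188 and 154 CPM, and cluster 17 was lowest with 33.5 and 25 CPM. Foxc2 was highest in cluster 12 (85.1 and 75.3 CPM) and cluster 10 (79.4 and 71.2 CPM), which did not differ beyond their intervals, and it was low in cluster 11 (27.6 and 17.1 CPM) and cluster 17 (7.78 and 11.2 CPM). Foxd1 was highest in cluster 10 of the control, at 49.9 CPM, and in cluster 17 of the mutant, at 43.7 CPM, and in cluster 11 it was not above background.

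Lmx1b was highest in cluster 16, at 43.2 CPM (95% interval 34.4 to 53.6) in the control library and 53.8 CPM (44.1 to 65.1) in the mutant library. It was near background in cluster 17, with 7 and 8 UMIs. Prrx1 had the narrowest range in the control library, 2.06-fold from cluster 17 (126 CPM) to cluster 2 (258 CPM), and a 4.22-fold range in the mutant. Cluster 17, marked by Osr2, Foxl2 and Dlk1, was thus the lowest cluster for Foxc1, Foxc2, Lmx1b and Prrx1 in both libraries.

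**Figure D3:**
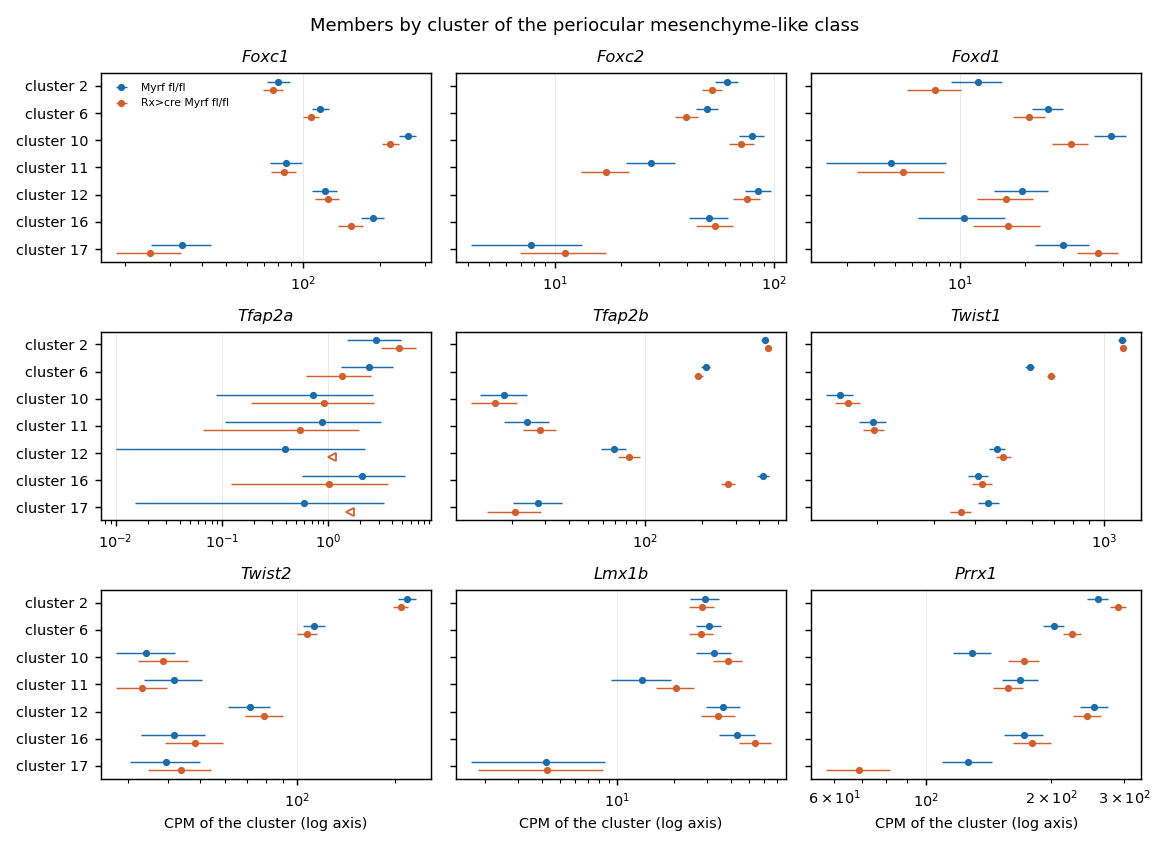
Level of each gene in the 7 clusters of the mesenchyme, as CPM on a log axis, with control in blue, mutant in orange, 95% exact Poisson intervals, and open triangles at 3 UMIs for a count of 0. Tfap2b, Twist1, Twist2, Prrx1 and, at low levels, Tfap2a peak in cluster 2, whereas Foxc1 peaks in cluster 10 at 257 and 220.4 CPM.

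Pairs of genes were also read cell by cell in thinned mesenchyme cells, pooled over the clusters. These are the same cells, and genes that share a peak cluster are found together more often once clusters are pooled. The shares are therefore no separate support for the grouping by cluster. Tfap2b was detected in 40.3% (37.2 to 43.5%) of control cells with Twist1 and 15.4% (12.5 to 18.8%) of those without, and in 39.1% and 12.4% of mutant cells. Twist2 was detected in 26.6% of control cells with Twist1 and 10.7% without, and in 27.7% and 10.2% of mutant cells. Prrx1 was also found more often with these genes, by a smaller gap. It was detected in 51.4% of control cells with Tfap2b and 40.6% without, and in 50.7% and 40.5% of mutant cells. With and without Twist1, the Prrx1 shares were 46.7% and 39.2% in the control and 47.8% and 35.6% in the mutant. Cells with Foxd1 held Tfap2b less often than cells without it, at 17.9% (10.2 to 28.3%) against 32.3% in the control and 14.6% (8.01 to 23.7%) against 30.4% in the mutant. These are shares over cells of 1 library each, which share depth and source, and are given as a description.

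Within single clusters the pairing of Tfap2b with Twist1 was mostly not resolved. The intervals of cells with and without Twist1 parted in both libraries in 1 of 7 clusters, in the mutant alone in 1, and in neither in 5. The first was the cycling cluster 6, where Tfap2b was found in 78 of 194 control cells with Twist1 (40.2%) and 20 of 112 without (17.9%), and in the mutant in 40.7% and 12.2%. In cluster 2 the shares were 68.9% and 40.9% in the control and 66% and 43.6% in the mutant, with few cells that lacked Twist1. Clusters 10, 11, 12, 16 and 17 had overlapping intervals in both libraries. In cluster 12, for example, the control shares were 22.4% and 21.9%, and in cluster 16 of the mutant the order was the other way, at 43.2% and 52.9%. The other pairs were resolved no better. Twist2 split by Twist1 parted in both libraries in 1 of 7 clusters and in neither in 6. Twist2 split by Tfap2b parted in both in 0, in 1 library in 1, and in neither in 6.

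**Figure D4:**
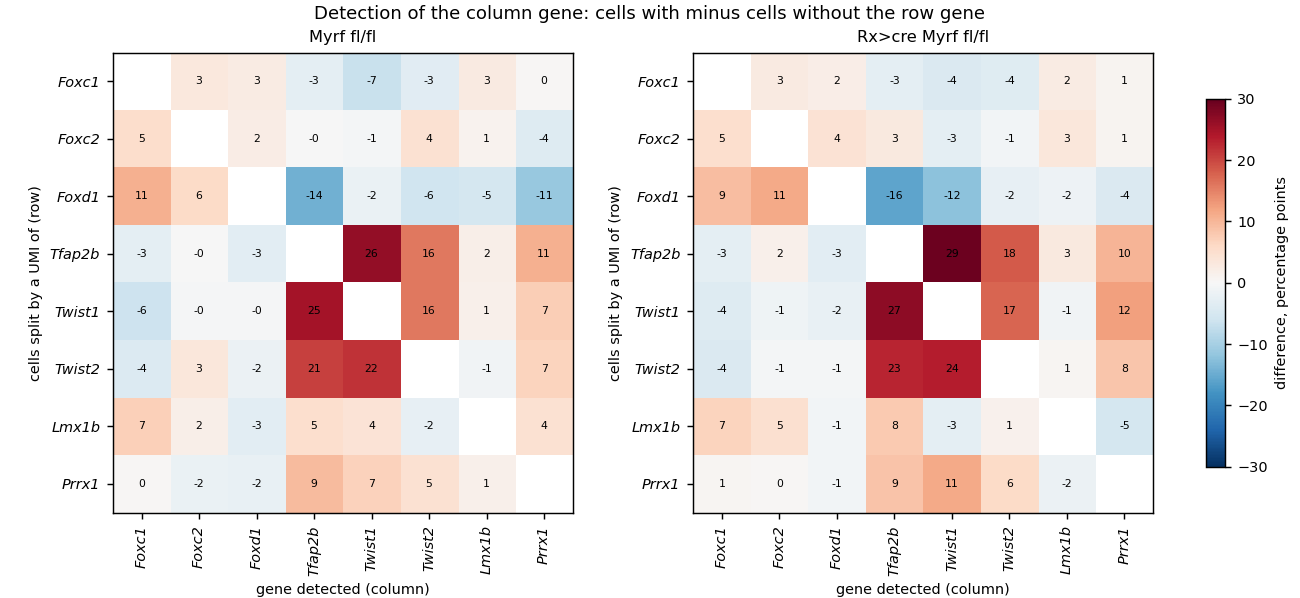
Difference, in percentage points, between mesenchyme cells with and without a UMI of the row gene in the share that holds the column gene, at 3000 UMIs per cell, for the genes found in at least 50 cells of each library. Red squares join Tfap2b, Twist1 and Twist2 in both libraries, and the Foxd1 row is blue at Tfap2b (17.9% against 32.3% in the control). The Tfap2b row is also positive at Prrx1 (51.4% against 40.6% in the control).

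The comparison of genotypes asks whether loss of Myrf in the eye field lineage was accompanied by other levels of these factors in the neighbouring mesenchyme. Over the class, 0 of the 9 genes differed by 1.5-fold or more, where 8.55% of 14762 genes with at least 10 UMIs did (2.95% of those with at least 50). The log2 ratios of mutant over control ran from -0.29 to 0.094, with 5 below 0 and 4 above, and their median was -0.0027 beside -0.038 for all genes. The counting interval lay below 0 for 4 genes and above 0 for 2, and over all genes 12.6% lay below and 6.18% above. The width of an interval is set by the UMIs of the gene, so this count follows depth as well as difference.

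The 3 forkhead genes were lower in the mutant mesenchyme. Foxc1 had a log2 ratio of -0.18 (-0.25 to -0.099), Foxc2 of -0.24 (-0.35 to -0.12) and Foxd1 of -0.29 (-0.48 to -0.10), with the 95% interval from counting in parentheses. Cluster 11, where Foxc2 and Foxd1 were low, held 3.30% (2.84 to 3.81%) of control and 5.04% (4.51 to 5.61%) of mutant cells. The part of cluster shares in the class ratios was not tested. Without clusters 11, 12 and 16 the ratios were -0.18 (-0.27 to -0.083), -0.20 (-0.34 to -0.061) and -0.35 (-0.56 to -0.14). The Foxd1 difference did not hold among cells with at most 5% mitochondrial UMIs, where its ratio was -0.073 (-0.30 to 0.16). For Foxc1 and Foxc2 the ratios among those cells were -0.20 (-0.30 to -0.11) and -0.22 (-0.37 to -0.069).

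Twist1 (0.089, 0.055 to 0.12) and Prrx1 (0.094, 0.037 to 0.15) were slightly higher in the mutant over the class. Among cells with at most 5% mitochondrial UMIs Prrx1 was at 0.026 (-0.045 to 0.097) and Twist1 at 0.15 (0.11 to 0.19). With the clusters weighted equally they were at 0.029 and 0.030, and among cells with at most 20000 UMIs Twist1 was at 0.038 (0.00087 to 0.076). Twist2 (0.009, -0.073 to 0.092), Lmx1b (0.032, -0.12 to 0.19) and Tfap2a (-0.0027, -0.65 to 0.67) had intervals that held 0. Those of Twist2 and Lmx1b reached no further than 0.19 on the log2 scale. They cover counting error only and set no limit on a difference between genotypes. Tfap2b was at -0.060 (-0.12 to -0.0012) over the class and at 0.070 (0.0039 to 0.14) without clusters 11, 12 and 16, so its direction turned with the clusters counted.

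By cluster, 8 of 57 ratios with at least 20 UMIs were past 1.5-fold, where 9.62% of all such gene and cluster ratios were. The lowest was Prrx1 in cluster 17, at 126 CPM (95% interval 109 to 144) in the control library and 68.7 CPM (57.4 to 81.6) in the mutant library, a log2 ratio of -0.87 (-1.20 to -0.55). Prrx1 went the other way in cluster 10, at 129 CPM (95% interval 116 to 143) in the control library and 172 CPM (158 to 186) in the mutant library, a ratio of 0.41 (0.22 to 0.61), and was also higher in cluster 2 (0.16, 0.058 to 0.27) and cluster 6 (0.14, 0.033 to 0.26). Its small ratio over the class thus joined clusters that differed in direction, and the difference between clusters was not tested.

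Tfap2b was lower in cluster 16 of the mutant, at 418 CPM (95% interval 389 to 448) in the control library and 275 CPM (253 to 299) in the mutant library, a ratio of -0.60 (-0.76 to -0.44), and near even in its peak cluster 2 (0.059, -0.025 to 0.14). It was also lower in cluster 6 (-0.13, -0.24 to -0.015), but not among cells with at most 20000 UMIs, where that ratio was 0.042 (-0.12 to 0.21). Foxd1 was lower in cluster 10 (-0.61, -1.0 to -0.24) and cluster 2 (-0.65, -1.24 to -0.073) and higher in cluster 17 (0.53, 0.021 to 1.08). Foxc1 was lower in cluster 10 (-0.22, -0.38 to -0.072) and cluster 16 (-0.29, -0.51 to -0.065), its clusters of highest level. Foxc2 was lower in cluster 11 (-0.69, -1.21 to -0.16) and cluster 6 (-0.31, -0.56 to -0.067). Twist1 was higher in the cycling cluster 6 (0.22, 0.15 to 0.28), lower in cluster 17 (-0.28, -0.43 to -0.13) and near even in its peak cluster 2 (0.011, -0.040 to 0.063). For Twist2, Lmx1b and Tfap2a every cluster ratio with at least 20 UMIs had an interval that held 0.

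**Figure D5:**
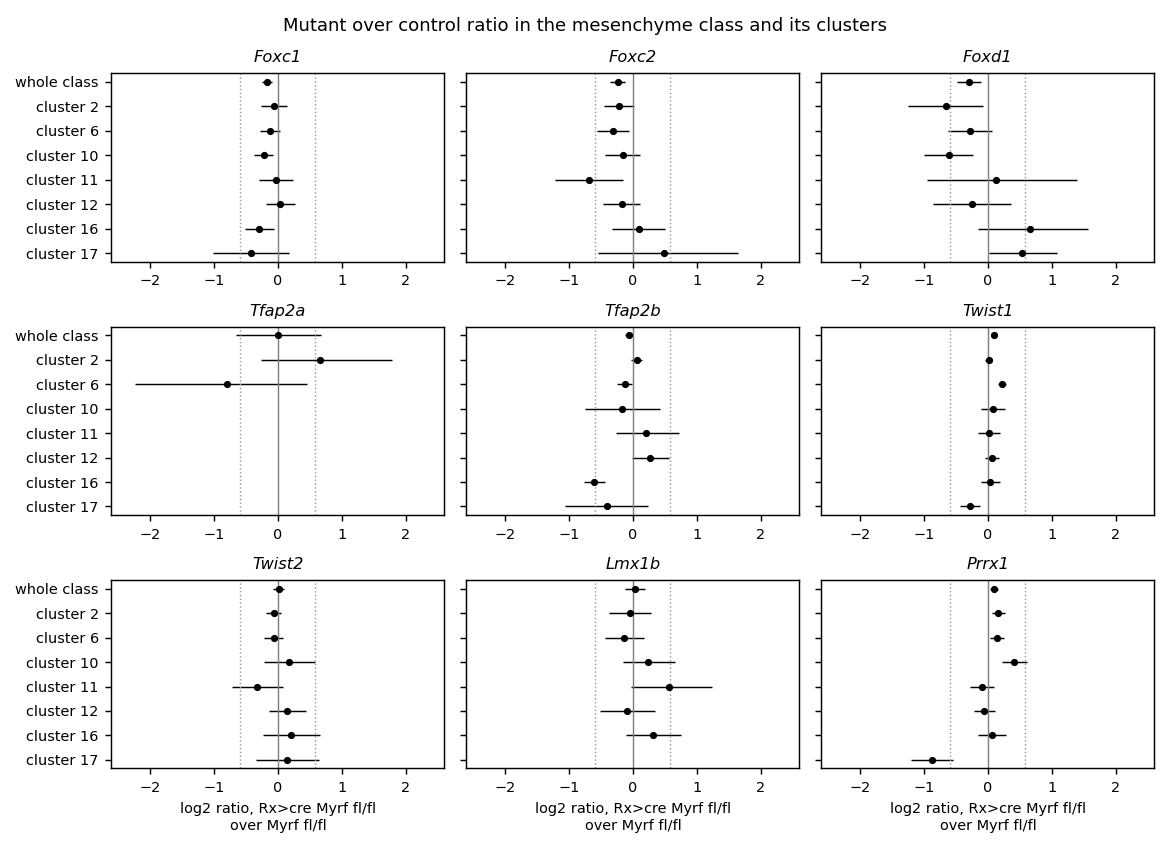
Log2 ratio of mutant over control for each gene in the whole mesenchyme class and in its 7 clusters, with 95% counting intervals, for ratios with at least 20 UMIs. Dotted lines mark 1.5-fold. Prrx1 in cluster 17 lies below the lower line at -0.87, and no whole-class ratio reaches either line.

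Outside the mesenchyme, Foxd1 had the opposite direction in the retina, a difference between classes that was not tested. Its ratio was 0.15 (0.015 to 0.29) in retinal progenitor-like cells, 0.40 (0.031 to 0.79) in ganglion cell-like cells and 0.73 (0.25 to 1.26) in neurogenic precursor-like cells. In amacrine or horizontal-like cells it was 1.44 (0.25 to 3.19) on 6 and 22 UMIs. Red blood cell-like cells held 0 and 25 UMIs of Foxd1, so its background was also higher in the mutant library, and its part in the retinal ratios was not tested. The AP-2 genes had intervals that held 0 in every other class where they were above background: Tfap2a in melanocyte-like cells was at 0.058 (-0.47 to 0.57) and Tfap2b in amacrine or horizontal-like cells at 0.29 (-0.050 to 0.65). Foxc1 was at -0.57 (-1.22 to 0.039) in endothelial-like and -0.73 (-1.83 to 0.21) in surface ectoderm-like cells, with intervals that held 0.

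Other factors of the mesenchyme and neural crest were read in the same cells. Of 46 listed, 45 had at least 10 UMIs in the class, 5 were lower by 1.5-fold or more in the mutant (5.13% of all genes) and 1 higher (3.42% of all genes), with a median log2 ratio of -0.071. The lowest ratios with at least 50 UMIs were those of Eya1, a transcriptional co-activator (2.38 and 1.20 CPM, log2 ratio -0.97, -1.67 to -0.32), and Barx1, a homeobox gene of facial mesenchyme (10.8 and 6.69 CPM, log2 ratio -0.68, -0.98 to -0.40). Foxf2, a forkhead gene of mesenchyme (16.4 and 10.9 CPM, log2 ratio -0.59, -0.82 to -0.36), and the orphan receptor gene Nr2f1 (103 and 73.9 CPM, log2 ratio -0.48, -0.57 to -0.39) followed. The highest were Meox2, a homeobox gene of mesoderm (3.87 and 6.39 CPM, log2 ratio 0.72, 0.34 to 1.12), Meis2 (1.40 and 1.73 CPM, log2 ratio 0.29, -0.39 to 1.02), Tshz2 (52.1 and 62.3 CPM, log2 ratio 0.26, 0.15 to 0.37) and Ebf2 (3.45 and 3.83 CPM, log2 ratio 0.15, -0.29 to 0.61).

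Of 13 paralogs of the 9 genes, 6 had at least 10 UMIs in the mesenchyme. Prrx2, the partner of Prrx1 (171 and 159 CPM, log2 ratio -0.11, -0.17 to -0.044), Scx, a factor of tendon (124 and 123 CPM, log2 ratio -0.012, -0.086 to 0.062), Foxd2 (17 and 18 CPM, log2 ratio 0.079, -0.12 to 0.28) and Tcf15 (9.64 and 7.59 CPM, log2 ratio -0.34, -0.63 to -0.058) had the most UMIs. The other 2 were past 1.5-fold, 1 lower and 1 higher, and were named after their values were seen. Lmx1a, the paralog of Lmx1b, had 21 and 8 UMIs (log2 ratio -1.60, -3.09 to -0.47), and Tfap2c, an AP-2 gene, had 8 and 25 UMIs (1.22, 0.14 to 2.69). None of the signalling genes reached 1.5-fold. Of 26 genes for retinoic acid and TGF-beta signalling and for partners of the 9 factors, 25 were measured, with log2 ratios from -0.49 to 0.22. Dkk2, a Wnt antagonist (497 and 501 CPM, log2 ratio 0.013, -0.024 to 0.050), Crabp2, a retinoic acid binding protein (348 and 335 CPM, log2 ratio -0.054, -0.098 to -0.0093), Tcf4, a basic helix-loop-helix partner of Twist factors (224 and 251 CPM, log2 ratio 0.16, 0.11 to 0.22), and Crabp1 (212 and 189 CPM, log2 ratio -0.17, -0.22 to -0.11) had the most UMIs of this list.

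For each of the 9 genes, the genes most like it in level over the 14 classes were found among 13560 genes by Pearson r of log2(CPM + 1), taking the lower r of the libraries. Foxc1 was closest to Irx3 (r = 0.89) and Snai2 (0.84), and Foxc2 to Sp5 (0.81) and Egfl6 (0.80). Twist1 was closest to Dpep1 (0.86) and 9130410C08Rik (0.86), and Prrx1 to Rspo1 (0.88) and Glt8d2 (0.85). Lmx1b was closest to Scx (0.91) and Carmn (0.86), and Tfap2a to Fxyd3 (0.84) and Col14a1 (0.70). Tfap2b had no match above 0.74 (Creb3l4, then Astn2 at 0.73), and Foxd1 was closest to Jakmip2 (0.87) and Cacng8 (0.87). These points share their libraries and class sizes, and the values describe these classes only.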

How the data were processed

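Single cells of 2 pools of mouse eye cups were measured. The authors made 10x Genomics 3' libraries, ran Cell Ranger 7.1.0 on mm10 and deposited raw UMI counts per gene and barcode, before their filters in Seurat 4.1.1. Whether intronic reads were counted is not given in the sources used here. Later ages were not analysed here.

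Cells needed at least 200 genes and at most 15% mitochondrial UMIs, and Scrublet (scanpy 1.11.5, expected rate 5%) marked doublets, which were removed (68 control and 65 mutant barcodes). Seurat 5.3.0 in R 4.3.3 integrated the libraries on 2000 variable genes and clustered them on 30 dimensions at resolution 0.8, leaving out Myrf and every gene of the gene lists. Clusters were named from marker lists, by a score and by the markers among the 10 leading genes against clusters of other classes, and these naming thresholds were set after the clusters were seen.

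Levels are CPM of summed counts with exact Poisson intervals. Log2 ratios had 1 UMI added to each count, with exact conditional binomial intervals, and shares had exact binomial (Clopper-Pearson) intervals, all at 95% and for counting error only. A count of 0 was placed at 3 UMIs of the class total. Total depth was 63483835 control and 75228861 mutant UMIs. The ratio and its interval were tested on simulated data. Gene positions came from the GENCODE annotation of GRCm38, the assembly of mm10, and sequences from RefSeq.

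The 9 genes and the gene lists were chosen with earlier results of these data known. Named were all 9 genes, the 2 genes most like each over the classes, the 4 lowest and 4 highest ratios with at least 50 UMIs among other mesenchyme factors, and up to 4 genes of each other list by UMIs. A limit of 2000 UMIs per cell that the authors state was used only as an alternative. Some named genes are not reported here. Other alternatives changed the filters, doublet removal, integration, clustering, scaling, thinning depth and class rule.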

Additional observations from a re-analysis of the deposited data

Results flagged for a closer look

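Foxd1 had opposite directions in the mesenchyme and in the retina, with counting intervals that left out 0 on both sides. Its log2 ratio of mutant over control was -0.29 in periocular mesenchyme-like cells, 0.15 in retinal progenitor-like cells, 0.40 in ganglion cell-like cells and 0.73 in neurogenic precursor-like cells. Within the mesenchyme it was -0.65 in cluster 2, -0.61 in cluster 10 and 0.53 in cluster 17. The mesenchyme value did not hold among cells with at most 5% mitochondrial UMIs (-0.073 (-0.30 to 0.16)) and was -0.084 with the clusters weighted equally. Red blood cell-like cells held 0 control and 25 mutant UMIs of Foxd1. The difference between classes or clusters was not tested, since each genotype had 1 library.

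Prrx1 and Twist1 also differed in direction between mesenchyme clusters, again untested. Prrx1 was at -0.87 in cluster 17 and at 0.41, 0.16 and 0.14 in clusters 10, 2 and 6. Twist1 was at -0.28 in cluster 17 and 0.22 in cluster 6.

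Some of the 9 genes were above background in cells that no class took in. In cluster 0, with low UMI counts, Twist1 was at 355 and 345 CPM (control first), Tfap2b at 146 and 133, Prrx1 at 129 and 156, Foxc1 at 82.9 and 64.1, and Twist2 at 80.4 and 76.4 CPM. Cluster 23 held most of the barcodes that both libraries share. There Foxc1 was at 261 CPM in the control (23 UMIs) and 243 CPM in the mutant library (21 UMIs), and Prrx1 at 443 (39 UMIs) and 232 CPM (20 UMIs).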

How the results depend on the processing

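Of 144 repeats of the 9 whole-class ratios, 128 stayed inside the counting interval, 15 moved outside it and 1 changed direction. Tfap2b turned to 0.070 without clusters 11, 12 and 16, an alternative chosen after seeing the data, which put Twist1 at 0.12, Prrx1 at 0.17 and the class at 18.3% of control and 20.3% of mutant cells. With the clusters weighted equally (also added), Foxd1 was at -0.084, Tfap2b at -0.17, Twist1 at 0.030 and Prrx1 at 0.029. With at most 5% mitochondrial UMIs, Foxd1 was at -0.073, Twist1 at 0.15, Prrx1 at 0.026 and the mutant class at 25.2%. With at most 20000 UMIs, Twist1 was at 0.038, Foxd1 in retinal progenitor-like cells at 0.30, Tfap2b in cluster 6 turned to 0.042 and the mutant class was 33.4%. Centring on the median gene put Twist1 at 0.13. Means of log2(CP10K + 1) per cell, a compressed scale, gave Foxc1 -0.077, Foxc2 -0.070, Foxd1 -0.028 and Twist1 0.028. Resolution 0.4 made the mutant class 32.7% and the rule per cell 28.4%. At most 2000 UMIs left the class 1.44% of control and 0.455% of mutant cells, too few UMIs for a ratio of these genes (under 20 in most), and 1 of the other mesenchyme factors past 1.5-fold. A fold of 2 left 0 of these factors. In every alternative where ratios could be had, 0 of the 9 genes passed 1.5-fold. Shares at 2000 or 5000 UMIs per cell moved in 33 of 36 repeats, as the depth itself sets them. Of 168 repeats of cluster ratios 157 stayed inside their interval, as did 126 of 127 in other classes. The causes were not tested. No paired analysis was possible because the labels carry no replicate numbers and each genotype had 1 library, so no replicate could be left out either, and depth limits the low genes Tfap2a, Lmx1b and Foxd1 most.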
